A study of Mus musculus with 23 samples.

Results

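The comparison set the 2 IgG libraries against the 2 bulk tumors of the control group of B16F10, a mouse melanoma cell line, and described which cell types the IgG libraries held. Of the 47643 genes in the deposited table, the 13822 with a mean of at least 1 TPM (transcript abundance scaled for gene length and for the library total) over these 4 of 23 libraries were used. All 4 libraries carry the wild-type label for Nr2f6, the nuclear receptor gene that the study edited with the guides sg492 and sg495 in other libraries. The control bulk tumors are labelled as whole tumors and have 2 replicates, of 6 bulk tumors in the series, and the other 4 came from cells edited with a guide. The IgG libraries are labelled with the cell line, the genotype and the group only, and 3 further libraries carry the label anti-PD1 in the same way. The labels' shared protocol names bulk tumors, tumor cells purified with magnetic beads and cultures, and nothing says which of these, if any, the 5 libraries are. The study's methods give a dose and an injection schedule for anti-PD1 in its mouse experiments. They describe a control IgG only beside an anti-CD8 antibody, and tie neither to these libraries. The methods describe tumors grown under the skin of male C57BL/6 mice of 6 to 8 weeks, and do not tie a library to an animal. Treatment, sample type and preparation batch were therefore different or unknown between the groups in the same way, and cannot be told apart. Nothing says that the 2 libraries of a group came from separate animals. The p-values therefore rest on a spread between libraries that is not known to be a spread between animals. That spread was pooled over the 11 libraries of 5 groups in the fit, and not taken from the 4 compared libraries alone.

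A B16F10 tumor is made of melanoma cells, which express the pigment genes of melanocytes, and of host cells. The host cells are leukocytes, which share the surface phosphatase CD45 (Ptprc), and the fibroblasts, pericytes and endothelial cells of the stroma. A tumor under the skin may also be cut with adjacent muscle or skin and with blood, whose cells bring their own marker genes. In RNA of mixed cells, fewer cells of a type and less RNA per cell of that type cannot be told apart.

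TPM hold no total count, and the labels give a range of sequencing depth for the series only, so the depth of each library is unknown here, and their sums are equal by construction. Between 12571 and 13401 genes per library had at least 1 TPM. Mitochondrial transcripts took 10.2% and 11.4% of the TPM in the IgG libraries and 4.73% and 6.70% in the control bulk tumors, and the part of this difference in the results below was not tested. The 2 IgG libraries were less alike than the 2 control bulk tumors, with a median absolute difference of 0.45 against 0.13 on the log2(TPM + 1) scale. Nr2f6 (ENSMUSG00000002393, chr8:71374123-71381960 in GRCm38, minus strand) stood at 25.8 and 25.2 TPM in the 2 control bulk tumors against 23.1 and 18.1 TPM in the 2 IgG libraries, and did not pass the test (log2 fold change -0.30 ± 0.18, adjusted p = 0.164).

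Expression on the log2(TPM + 1) scale was fitted with limma in the 11 libraries of bulk tumors, IgG and anti-PD1, and a call needed 1.5-fold or more and p under 0.05 after Benjamini-Hochberg adjustment. Fold changes below are IgG minus control bulk tumor on that log2 scale, with their standard error, and understate the change of genes with low TPM. No fold change over both IgG libraries is given here for a gene listed at 0 in either, and list medians that hold such genes depend on the pseudocount. Genes low in either group could pass the filter through the other group, so counts over tested genes depend on the filter. Of the 13822 genes, 7719 or 55.8% were called, 2466 (17.8%) higher and 5253 (38%) lower in the IgG libraries. Both IgG libraries lay above both control bulk tumors for 26.2% of the genes and below both for 53.1%. The median fold change of all genes was -0.41, and the gene lists below are to be read against it. Median-of-ratios scaling moved that median to -0.08 and the share of higher genes among the calls from 31.9% to 47.6%, with 3225 genes higher and 3544 lower. A change of at least 8-fold was called for 647 genes in the higher direction and 157 in the lower.

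Leukocyte genes were higher in the IgG libraries. Of 17 genes expressed across leukocytes, 16 were higher, with a median fold change of 4.39. Ptprc (ENSMUSG00000026395, chr1:138062861-138175708, minus strand) stood at 9.29 and 5.74 TPM in the 2 control bulk tumors against 162 and 273 TPM in the 2 IgG libraries, a fold change of 4.66 ± 0.46. The integrin chain Itgb2 stood at 21.1 and 15.3 TPM against 496 and 661 TPM (4.92 ± 0.41). Both IgG libraries lay far above both control bulk tumors for these genes, and the groups did not overlap. The exception, Arhgdib, was also expressed in the tumor cells, with up to 586 TPM in cultured cells, and stood at 645 and 613 TPM against 494 and 539 TPM. The summed TPM of all 17 was 922 and 801 in the control bulk tumors and 5182 and 5944 in the IgG libraries. The ratio of the means was 6.46. A restriction made after seeing the data kept the 10 leukocyte genes under 1 TPM in all 12 libraries of sorted tumor cells and cultured cells. Their summed TPM was 117 and 71.3 in the control bulk tumors and 2103 and 2628 in the IgG libraries, a ratio of the means of 25.1.

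Macrophage and monocyte genes had the highest summed TPM of the leukocyte cell types. Of 16 such genes, 15 were higher, with a median fold change of 4.22, and the count was 15 in all fits with 1 of the 4 libraries left out. Their summed TPM was 725 and 512 in the control bulk tumors and 12069 and 10985 in the IgG libraries, where these genes took more TPM than the melanocyte genes described below. Lyz2, the lysozyme of myeloid cells, alone stood at 280.3 and 226 TPM in the 2 control bulk tumors against 5441 and 4624 TPM in the 2 IgG libraries (4.31 ± 0.19). The growth factor receptor Csf1r stood at 13.7 and 9.27 TPM against 319.8 and 315 TPM (4.70 ± 0.23), and the complement gene C1qa at 87.1 and 51.2 TPM against 980.5 and 727 TPM (3.64 ± 0.26). Both IgG libraries lay above both control bulk tumors in each case. The largest change of the list was in Ccr2, the chemokine receptor of inflammatory monocytes (ENSMUSG00000049103, chr9:124101950-124113557, plus strand), at 6.6 and 5.34 TPM against 289 and 402 TPM (5.62 ± 0.44). Cd163, the hemoglobin scavenger receptor of resident macrophages, was at 1.27 and 1.34 TPM against 1.72 and 1.09 TPM. It was the only gene of the list not called (adjusted p = 0.952).

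**Figure D1:**
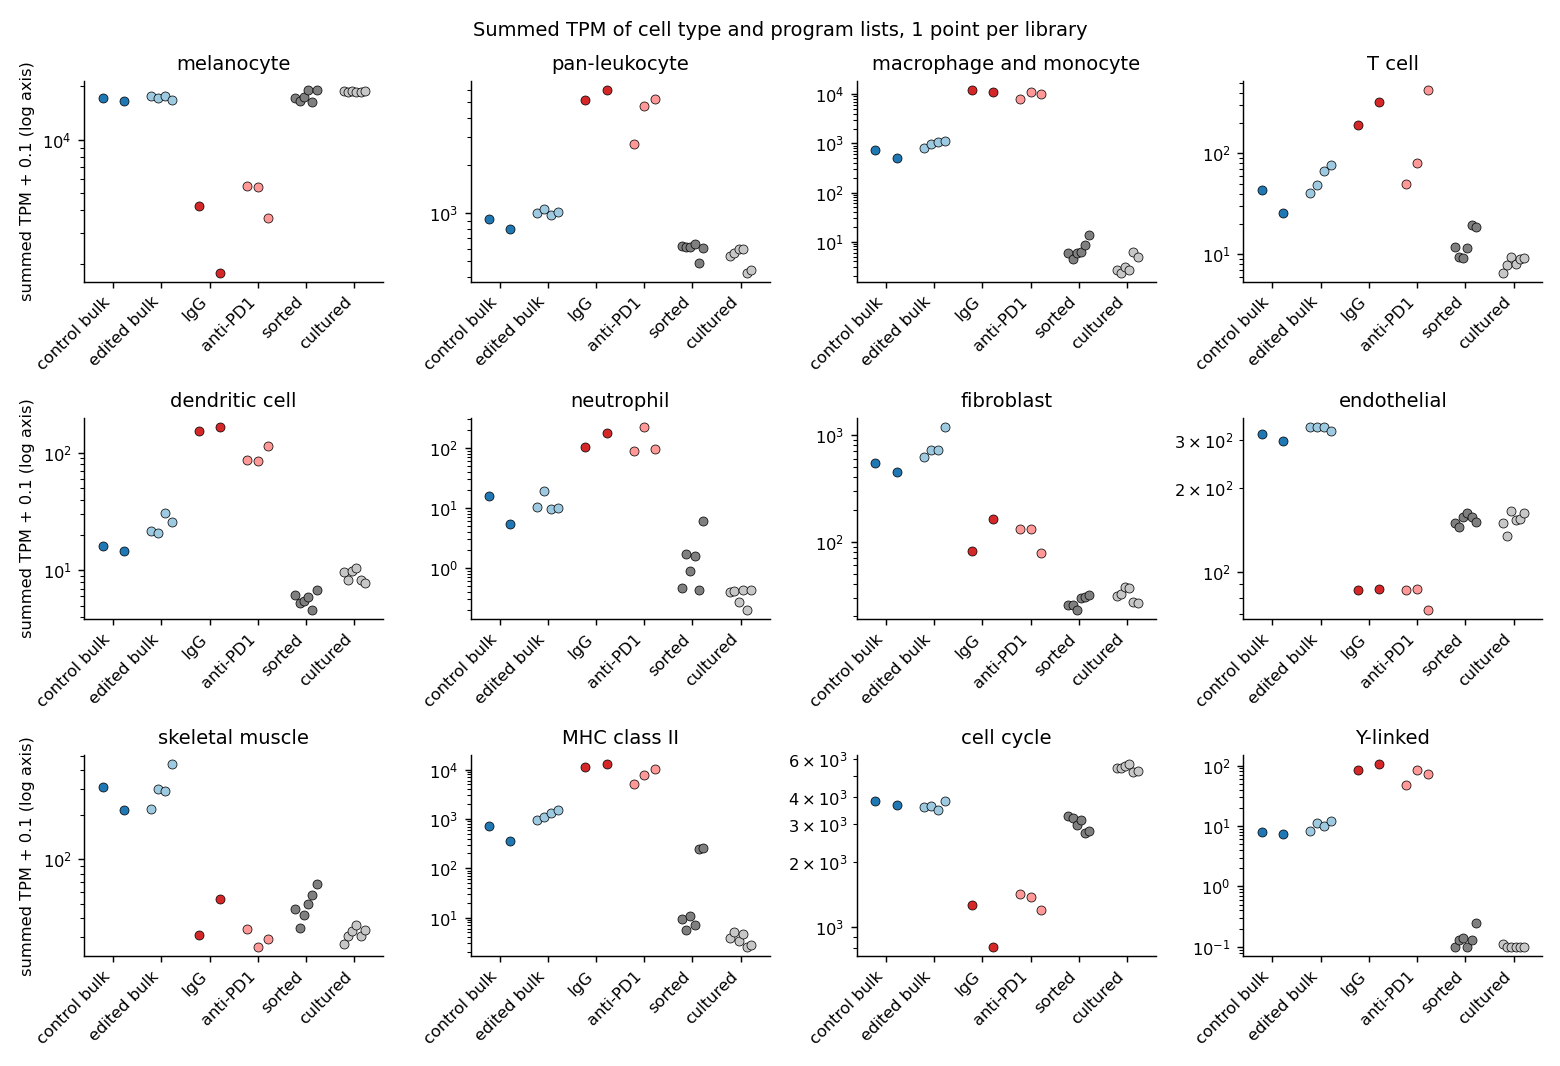
Summed TPM of the genes of 12 lists in each of the 23 libraries, on a log axis after adding 0.1; each point is 1 library, and the x axis gives its group (edited bulk, bulk tumors with sg492 or sg495). The IgG points lie above all bulk tumors for the leukocyte, macrophage, T cell, dendritic cell, neutrophil, MHC class II and Y-linked lists, and below all bulk tumors for the melanocyte, fibroblast, endothelial, skeletal muscle and cell cycle lists.

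Dendritic cell genes were higher for 8 of 9 tested, with a median fold change of 2.85. Clec9a, a receptor for dead cells on cross-presenting dendritic cells, stood at 0.85 and 0.37 TPM in the 2 control bulk tumors against 19.1 and 37.6 TPM in the 2 IgG libraries (4.13 ± 0.46), and Ccr7, the receptor that guides mature dendritic cells to lymph nodes, at 2.33 and 2.72 TPM against 25.4 and 43.2 TPM (3.28 ± 0.43). The groups did not overlap for either gene. Zbtb46, the remaining gene, stood at 4.16 and 3.4 TPM against 4.29 and 8.18 TPM and did not pass the test, and it reached 4.46 TPM in sorted tumor cells. Of 11 neutrophil genes, 5 had enough TPM to be tested and all 5 were higher, with a median of 3.10. Genes low in the control bulk tumors passed the filter through the IgG libraries, so this count depends on it. With no filter, 5 of 7 were higher and none was lower. The alarmin S100a8 stood at 6.32 and 1.82 TPM against 21.6 and 65.8 TPM (3.10 ± 0.65), and the neutrophil collagenase Mmp8 at 0.35 and 0.43 TPM against 20.1 and 25.3 TPM (4.08 ± 0.45). Ly6g, which defines mouse neutrophils, and the granule genes Ngp, Camp and Mpo were listed at 0 in all 4 libraries.

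T cell genes were also higher, with less certainty. Of 20 tested, 14 were higher and 1 lower, with a median fold change of 2.3, and the summed TPM of the 22 genes was 42.8 and 25.8 in the control bulk tumors and 189 and 325 in the IgG libraries. Cd3e, a chain of the T cell receptor complex, stood at 2.19 and 0.55 TPM in the 2 control bulk tumors against 20.1 and 22.1 TPM in the 2 IgG libraries (3.31 ± 1.08, adjusted p = 0.0246), and Cd8a, the coreceptor of cytotoxic T cells, at 2.57 and 0.51 TPM against 21.98 and 30.1 TPM (3.52 ± 0.99, adjusted p = 0.0126). The groups did not overlap for either, but the control bulk tumors differed from each other by several fold. The coreceptor Cd4 stood at 1.28 and 0.4 TPM against 4.64 and 0.82 TPM and did not pass the test, with overlapping groups, but was called without IgG replicate 2 (1.66, adjusted p = 0.0231). The lower gene was Tcf7, a transcription factor of naive and memory T cells that was also expressed in the tumor cells, up to 11.45 TPM in sorted cells, and that stood at 11.8 and 8.58 TPM against 4.08 and 4.93 TPM. With control bulk tumor replicate 1, control bulk tumor replicate 2, IgG replicate 1 or IgG replicate 2 left out, the number of higher T cell genes was 5, 1, 10 and 2. The adjusted p of Cd3e then ran from 0.0538 to 0.132, and Cd8a lost its call without control bulk tumor replicate 2 (adjusted p = 0.0894) and without IgG replicate 2 (0.0703). The anti-PD1 libraries, which lent their spread to the fit, ranged from 0.65 to 29.65 TPM of Cd3e.

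Of 10 tested genes of natural killer and cytotoxic cells, 4 were higher, with a median of 1.82. That median was 1.10 without IgG replicate 2, 2.85 without IgG replicate 1 and 2.86 with a pseudocount of 0.1. The granule protease Gzmb stood at 8.96 and 3.2 TPM in the 2 control bulk tumors against 80.2 and 108 TPM in the 2 IgG libraries (3.87 ± 1.17), and the pore-forming protein Prf1 at 1.7 and 0.55 TPM against 26.5 and 35.4 TPM (3.95 ± 1.19). Both IgG libraries were above both control bulk tumors for both genes. Prf1 lost its call when any 1 of the 4 libraries was left out (adjusted p from 0.0516 to 0.0947), and Gzmb in 3 of those 4 fits, without control bulk tumor replicate 2 (0.109), IgG replicate 1 (0.0518) or IgG replicate 2 (0.0884). The list as a whole had 2, 1, 5 and 1 higher genes without control bulk tumor replicate 1, control bulk tumor replicate 2, IgG replicate 1 and IgG replicate 2. Ncr1, the natural killer receptor NKp46, stood at 0.14 and 0.15 TPM against 0 and 5.11 TPM, so that the group rested on 1 library, and without IgG replicate 1 it was called (2.42, adjusted p = 0.0291). Of 15 B cell and plasma cell genes, 5 were tested and 3 were higher. With no filter, 4 of 14 were higher. Ighm, the heavy chain of IgM, stood at 4.13 and 2.83 TPM against 49.3 and 34.1 TPM (3.25 ± 0.32). The B cell receptor chain Cd79a stood at 3.26 and 1.92 TPM against 0.78 and 4.66 TPM and did not pass the test, and its groups overlapped. Ms4a1 (CD20), which defines B cells, was listed at 0 in both IgG libraries. The light chain Igkc was at 0.83 and 0.9 TPM against 23.5 and 0 TPM, with the libraries of the IgG group on opposite sides of the control bulk tumors. Of 7 mast cell and basophil genes, 6 were listed at 0 in both IgG libraries and Cma1, the remaining one, was at 3.22 TPM in replicate 2 only.

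Marker genes were also set against Ptprc as a ratio of TPM, which does not give shares of cells, since RNA per cell may differ and the tumor cells may express a marker. Csf1r was at 1.48 and 1.61 times Ptprc in the control bulk tumors and at 1.97 and 1.16 times in the IgG libraries, and the groups overlapped. Ccr2 was at 0.710 and 0.930 times Ptprc in the control bulk tumors and at 1.79 and 1.47 times in the IgG libraries. C1qa moved the other way, from 9.37 and 8.93 times to 6.05 and 2.67 times. So the monocyte receptor was higher, and the complement gene lower, relative to Ptprc in both IgG libraries. Cd3e was at 0.236 and 0.0958 times Ptprc in the control bulk tumors and at 0.124 and 0.0811 times in the IgG libraries, again with overlap. Flt3, a growth factor receptor of dendritic cell progenitors, was at 0.0678 and 0.0697 times in the control bulk tumors and at 0.0346 and 0.0209 times in the IgG libraries. Flt3 does not stand for its list. By the TPM given above, Clec9a was higher and Ccr7 lower relative to Ptprc in both IgG libraries. Flt3 and Clec9a were both under 1 TPM in the control bulk tumors. These ratios were not tested.

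**Figure D2:**
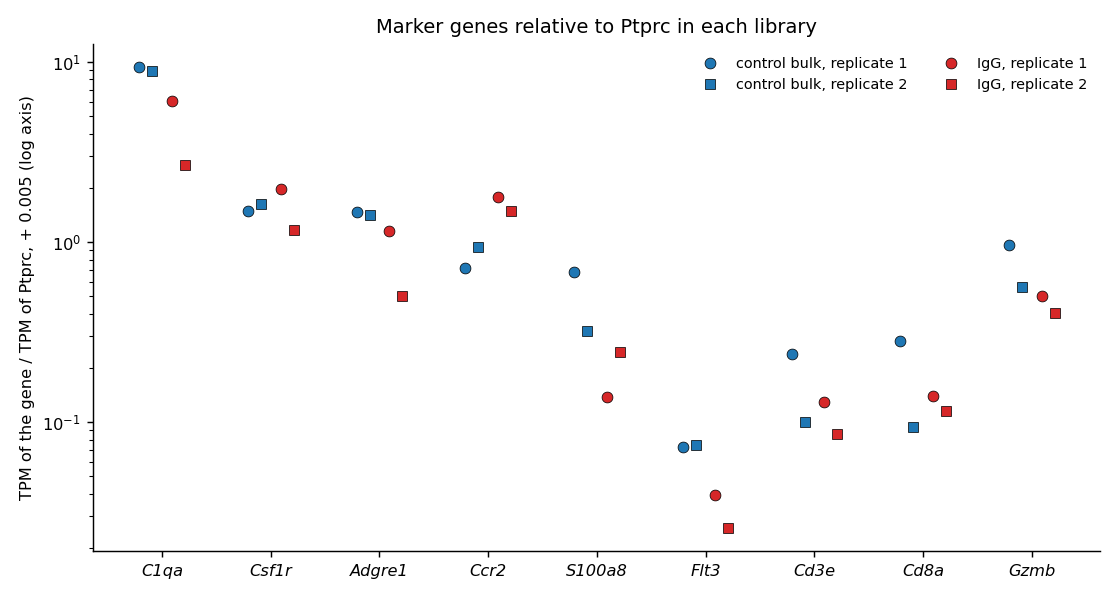
Ratio of the TPM of 9 marker genes to the TPM of Ptprc in each of the 4 libraries, on a log axis after adding 0.005; blue points are control bulk tumors, red points IgG libraries, circles replicate 1 and squares replicate 2. Ccr2 is higher and C1qa, Adgre1, S100a8, Flt3 and Gzmb are lower in both IgG libraries, while the groups overlap for Csf1r, Cd3e and Cd8a. S100a8 and Flt3 do not stand for the neutrophil and dendritic cell lists. By the TPM in the text, Mmp8 and Clec9a, which are not shown, were higher relative to Ptprc in both IgG libraries, and Ccr7 was lower.

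All 12 melanocyte genes were lower, with a median fold change of -2.78 and the IgG libraries below both control bulk tumors for each gene. Their summed TPM was 17273 and 16558 in the control bulk tumors and 4222.5 and 1784.7 in the IgG libraries, which is 25.0% and 10.6% of the mean of the control bulk tumors. Pmel, the fibril protein of the melanosome (ENSMUSG00000025359, chr10:128704195-128720238, plus strand), stood at 2852 and 2593 TPM in the 2 control bulk tumors against 794 and 313 TPM in the 2 IgG libraries (-2.45 ± 0.36). Tyr, the rate-limiting enzyme of melanin synthesis, stood at 442 and 418 TPM against 74.3 and 23.4 TPM (-3.33 ± 0.43), and Mitf, the master transcription factor of melanocytes, at 377 and 363 TPM against 79.96 and 30.8 TPM (-2.87 ± 0.41). IgG replicate 2 was the lower of the pair for 11 of the 12 genes, the exception being Oca2 at 37.96 and 47.7 TPM against 6.83 and 7.87 TPM. The melanocyte genes stood at 16249 to 19039 summed TPM in sorted tumor cells and at 18567 to 18913 in culture, so the control bulk tumors were close to libraries of tumor cells in this sum and the IgG libraries were not.

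Stromal genes were mostly lower, as the melanocyte genes were. Of 13 tested fibroblast genes, 10 were lower and 1 higher, with a median fold change of -2.60. The collagen chain Col3a1 stood at 189 and 169 TPM in the 2 control bulk tumors against 5.56 and 4.81 TPM in the 2 IgG libraries (-4.86 ± 0.38), and Col1a1 at 92.2 and 72.2 TPM against 3.72 and 16.9 TPM (-3.17 ± 0.73). Both IgG libraries were below both control bulk tumors for both collagens. The higher gene was Pdpn (podoplanin), at 33.7 and 29.2 TPM against 61.8 and 105 TPM (1.33 ± 0.42), which was also expressed in the tumor cells at up to 23.8 TPM in culture. Pdpn lost its call without control bulk tumor replicate 1 (adjusted p = 0.0622), control bulk tumor replicate 2 (0.0966) or IgG replicate 2 (0.144). All 7 tested genes of pericytes and smooth muscle were lower, with a median of -2.03 (-3.59 with a pseudocount of 0.1). The count was 6 with quantile normalization and 5 in a fit of the 4 libraries alone. The smooth muscle actin Acta2 stood at 31.5 and 26.3 TPM against 1.71 and 2.14 TPM (-3.35 ± 0.30), and the pericyte regulator Rgs5 at 15.9 and 16.4 TPM against 0 and 0 TPM, listed at 0 in both IgG libraries.

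Endothelial genes did not all move alike. Of 14 tested, 10 were lower, with a median of -2.14 (-4.48 with a pseudocount of 0.1). Cdh5, the cadherin of endothelial junctions, stood at 15.2 and 13.3 TPM in the 2 control bulk tumors against 0.2 and 0.82 TPM in the 2 IgG libraries (-3.36 ± 0.31), and Plvap, a protein of endothelial fenestrae, at 26.8 and 22.7 TPM against 0 and 0 TPM. Pecam1 (CD31) stood at 20.4 and 15.96 TPM against 17.4 and 11.6 TPM and did not pass the test (adjusted p = 0.332), and its value changed sign to 0.016 with median-of-ratios scaling. Kdr, Flt1 and Vwf did not pass the test either, and Flt1, a receptor for vascular endothelial growth factor, stood at 6.61 and 6.31 TPM against 9.19 and 18.7 TPM. Pecam1 is known in leukocytes and platelets as well as in endothelium. Both tested genes of lymphatic endothelium, Flt4 and Lyve1, were lower, but only 1 of them without control bulk tumor replicate 1, without control bulk tumor replicate 2, without IgG replicate 2 or in a fit of the 4 libraries alone.

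Markers of tissue around the tumor and of blood were mostly lower. Of 16 tested skeletal muscle genes, 15 were lower, with a median of -2.68 (-5.73 with a pseudocount of 0.1), and 10 of the 18 genes on the list were at 0 in both IgG libraries. The count of lower muscle genes was 13 with median-of-ratios scaling or quantile normalization and 12 in a fit of the 4 libraries alone. Muscle creatine kinase Ckm stood at 21.02 and 17.2 TPM in the 2 control bulk tumors against 0.13 and 0 TPM in the 2 IgG libraries, and the fast myosin heavy chain Myh1 at 12.6 and 7.75 TPM against 0 and 0 TPM. Eno3, the muscle enolase, was not called, and it stood at up to 45.6 TPM in sorted tumor cells. Of 5 tested erythroid genes, 4 were lower, with a median of -3.33. The beta globin Hbb-bs stood at 661 and 227 TPM against 43.5 and 23.7 TPM (-3.55 ± 0.76). Control bulk tumor replicate 1 was the higher of the pair for all 4 globin genes, and the count of lower erythroid genes was 1, 4, 2 and 3 without control bulk tumor replicate 1, control bulk tumor replicate 2, IgG replicate 1 and IgG replicate 2, and 2 with median-of-ratios scaling or in a fit of the 4 libraries alone. The paired globin genes are near copies of each other, and reads could be split between them. Of 17 keratinocyte genes, 3 were tested and 2 lower (1 with either control bulk tumor left out, either other scaling or a fit of the 4 libraries alone), and none of the 10 hair follicle genes in the table had enough TPM to be tested. Of 4 tested adipocyte genes, 2 were lower and 1 higher, the lipase gene Lipe at 2.36 and 2.19 TPM against 15.4 and 18.1 TPM. Mag was the only tested Schwann cell gene and was higher, at 0.41 and 0.29 TPM against 3.5 and 1.23 TPM, and it lost its call without control bulk tumor replicate 1, without control bulk tumor replicate 2 and in a fit of the 4 libraries alone.

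2 chemokines often read as platelet markers were higher, and the 1 other platelet gene tested did not pass the test. With no filter, 3 of 8 platelet genes were higher and none was lower. Pf4 stood at 32.2 and 27.1 TPM in the 2 control bulk tumors against 604 and 373 TPM in the 2 IgG libraries (3.96 ± 0.45), and Ppbp at 1.51 and 0.81 TPM against 47.5 and 27.1 TPM (4.11 ± 0.73). The platelet glycoprotein genes Gp9 and Gp5 were listed at 0 in both IgG libraries. Itga2b, the platelet integrin chain, stood at 1.02 and 1.33 TPM against 1.35 and 5.6 TPM and did not pass the test. Both IgG libraries lay above both control bulk tumors for Itga2b, and its call depended on which libraries were fitted. Pf4 is also expressed in macrophages.

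4 Y-linked genes were almost absent from the libraries of tumor cells, with a summed TPM of at most 0.15 in tumor cells after sorting and 0.01 in culture. All 4 were higher. Eif2s3y stood at 3.1 and 4.16 TPM in the 2 control bulk tumors against 48.1 and 58.4 TPM in the 2 IgG libraries (3.55 ± 0.26). Their summed TPM was 7.82 and 7.20 in the control bulk tumors and 84.8 and 104 in the IgG libraries, a ratio of 12.6. Both IgG libraries exceeded all 6 bulk tumors, whose highest sum was 12.03.

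**Figure D3:**
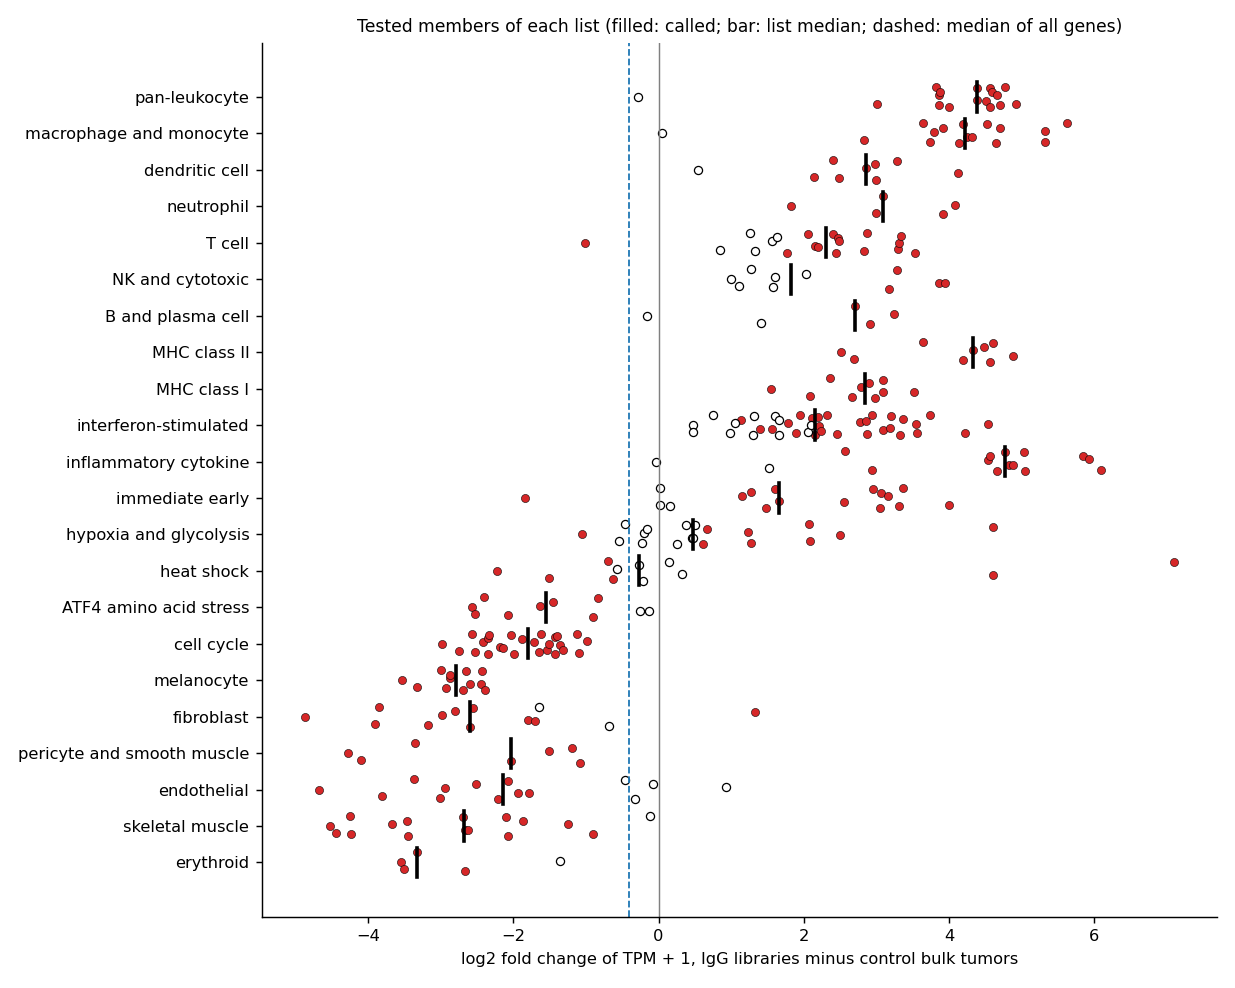
Log2 fold change of TPM + 1, IgG libraries minus control bulk tumors, of each tested gene of 22 lists; filled points are called genes, open points are not, black bars are list medians, and the dashed line is the median of all genes at -0.41. The medians of the leukocyte cell type lists lie to the right of 0, from 1.82 for the natural killer and cytotoxic list to 4.39 for the pan-leukocyte list, and those of the melanocyte, stromal, muscle and erythroid lists to the left.

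Genes of antigen presentation were higher as a group. All 9 genes of MHC class II, which presents peptides to CD4+ T cells, were higher, with a median of 4.33, and their summed TPM went from 727 and 358 to 11088 and 12706. The beta chain H2-Ab1 stood at 100.3 and 53.3 TPM in the 2 control bulk tumors against 1958 and 2413 TPM in the 2 IgG libraries (4.87 ± 0.34), and the class II transactivator Ciita at 2.57 and 0.97 TPM against 35.3 and 63.9 TPM (4.19 ± 0.45). All 10 genes of MHC class I and its peptide loading were higher, with a median of 2.84, and 9 of them without control bulk tumor replicate 2 or without IgG replicate 2. The light chain B2m stood at 1179.5 and 739 TPM against 3833 and 4115 TPM (2.09 ± 0.39). The groups did not overlap for any of these genes. Reads of the class I heavy chains and of related class I genes may be split between near copies.

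Interferon-stimulated genes were higher for 27 of 39 tested, none was lower, and the median was 2.16. The chemokine Cxcl9, which draws T cells through Cxcr3, stood at 14.01 and 7.0 TPM in the 2 control bulk tumors against 163 and 253 TPM in the 2 IgG libraries (4.22 ± 0.73), and the transcription factor Irf7 at 23.6 and 14.5 TPM against 142 and 367 TPM (3.56 ± 0.71). Both IgG libraries were above both control bulk tumors for both. Several interferon-inducible GTPases did not pass the test: Tgtp1 stood at 88.4 and 17.4 TPM against 52.9 and 57.7 TPM, so that control bulk tumor replicate 1 exceeded both IgG libraries. The 2 control bulk tumors differed in this program, with summed TPM of 1453 and 665, and so did the IgG libraries, with 3338 and 6195. Without control bulk tumor replicate 1, control bulk tumor replicate 2, IgG replicate 1 or IgG replicate 2, the number of higher genes was 24, 15, 28 and 15.

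Of 11 immune checkpoint genes, 9 were higher, with a median of 3.06. Cd274, which encodes PD-L1, stood at 7.24 and 3.71 TPM in the 2 control bulk tumors against 104 and 197 TPM in the 2 IgG libraries (4.53 ± 0.58), and Pdcd1, its receptor PD-1, at 1.3 and 0.48 TPM against 21.01 and 13.8 TPM (3.29 ± 0.91). The groups did not overlap for either. Pdcd1 lost its call without control bulk tumor replicate 2 (adjusted p = 0.0726) and without IgG replicate 1 (0.0595). Of 15 inflammatory cytokines, chemokines and enzymes, 13 were higher, with a median of 4.78, the highest of all lists. Il1b stood at 4.95 and 2.77 TPM against 199 and 373 TPM (5.85 ± 0.70), the monocyte chemokine Ccl2 at 35.7 and 27.98 TPM against 1082 and 1040.1 TPM (5.03 ± 0.24), and the nitric oxide synthase Nos2 at 3.43 and 2.31 TPM against 52.03 and 177 TPM (4.66 ± 0.84). The IgG libraries were more than 10-fold above both control bulk tumors in each of these. Il6 was at 1.87 and 1.66 TPM against 0 and 6.34 TPM and Cxcl1 at 2.54 and 0.54 TPM against 4.94 and 6.6 TPM, and neither passed the test.

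All 26 cell cycle genes were lower, with a median of -1.80. Rrm2, a subunit of ribonucleotide reductase, stood at 418 and 426 TPM in the 2 control bulk tumors against 66.6 and 41.3 TPM in the 2 IgG libraries (-2.98 ± 0.21), and the topoisomerase Top2a at 306 and 293 TPM against 62.95 and 53.3 TPM (-2.35 ± 0.13). No IgG library reached a control bulk tumor for any of the 26 genes. Their summed TPM was 3828 and 3658 in the control bulk tumors and 1267 and 812 in the IgG libraries. It was 2712.9 to 3258.7 in sorted tumor cells, below both control bulk tumors, and 5210.2 to 5648.5 in cultured cells. Genes of the ATF4 response to amino acid shortage were lower for 8 of 10, with a median of -1.54, among them Phgdh, the first enzyme of serine synthesis, at 338 and 337 TPM against 93.4 and 33.4 TPM (-2.57 ± 0.40). The count of lower ATF4 genes was 6 with median-of-ratios scaling and 7 in a fit of the 4 libraries alone.

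Of 19 hypoxia and glycolysis genes, 8 were higher and 1 lower, with a median of 0.47. The count depended on the scaling, with 13 higher and 1 lower after median-of-ratios scaling and 10 higher and 2 lower after quantile normalization, and without IgG replicate 1 it was 9 higher and 3 lower. The prolyl hydroxylase Egln3 stood at 2.23 and 2.58 TPM in the 2 control bulk tumors against 62.5 and 108 TPM in the 2 IgG libraries (4.61 ± 0.36), and the glucose transporter Slc2a1 at 86.7 and 85.8 TPM against 301 and 439.9 TPM (2.07 ± 0.29). Car9, the carbonic anhydrase induced by hypoxia, was the lower gene, at 145 and 155 TPM against 90.3 and 56.4 TPM (-1.06 ± 0.25). The abundant glycolytic enzymes Pgk1, Ldha, Aldoa and Eno1 were not called.

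Immediate early genes, which cells switch on within minutes of a stimulus, were higher for 13 of 17 tested, with a median of 1.65. Zfp36, which binds and destabilizes cytokine mRNA, stood at 11.5 and 9.74 TPM in the 2 control bulk tumors against 169 and 199.7 TPM in the 2 IgG libraries (4.0 ± 0.34), and Jun at 20.04 and 14.8 TPM against 146 and 155 TPM (3.05 ± 0.21). Nr4a1 was lower, at 69.3 and 91.2 TPM against 31.7 and 14.5 TPM (-1.84 ± 0.34), and Fosb, Egr1 and Ier2 did not pass the test. The summed TPM of the list was 407 and 425 in the control bulk tumors, 1564 and 1838 in the IgG libraries, 1636 to 2607 in the sorted tumor cells, which had been digested with collagenase for sorting, and 241 to 456 in cultured cells. Of 11 heat shock genes, 2 were higher and 4 lower, close to the shares of 17.8% and 38% over all genes tested. The count of lower heat shock genes was 2 with median-of-ratios scaling or in a fit of the 4 libraries alone. Hspa1a (ENSMUSG00000091971, chr17:34969190-34972156, minus strand) stood at 1.22 and 0.57 TPM against 249 and 261 TPM (7.10 ± 0.29), the largest change among all named genes, and its neighbour Hspa1b at 12.5 and 6.62 TPM against 260.4 and 233 TPM (4.61 ± 0.32). Hspa1a and Hspa1b are near-identical copies, so their reads could be split between them. The mitochondrial chaperone Hspd1 was lower, at 1224 and 1126 TPM against 386 and 164 TPM (-2.22 ± 0.35). The part of tissue handling in these values was not tested.

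Called genes without overlap were also ranked over the genes tested. Predicted genes, pseudogenes, small and ribosomal RNAs, mitochondrially encoded genes and genes with only a clone name were left out by their symbols. The 10 largest changes in the higher direction were in Hspa1a, Arg1, Hcar2, F10, Cxcl2, Il1b, Ltb4r1, Clec4e, Ccr2 and Ifitm1. Of these, Hspa1a, Arg1, Cxcl2, Il1b and Ccr2 are also members of the lists above. Arginase 1 (Arg1, ENSMUSG00000019987, chr10:24915221-24927484, minus strand) stood at 18.7 and 14.1 TPM in the 2 control bulk tumors against 1224 and 1132 TPM in the 2 IgG libraries (6.09 ± 0.49). Hcar2, a receptor for niacin and ketone bodies, stood at 1.02 and 1.1 TPM against 99.1 and 169 TPM (5.99 ± 0.50), and Clec4e, the myeloid receptor Mincle, at 1.65 and 1.85 TPM against 119 and 159 TPM (5.65 ± 0.59). In each of the 3 both IgG libraries were far above both control bulk tumors, and none exceeded 0.34 TPM in a sorted or cultured library. The coagulation factor F10 stood at 4.75 and 3.03 TPM against 242 and 355 TPM (5.93 ± 0.42), and the leukotriene receptor Ltb4r1 at 0.72 and 0.21 TPM against 60.9 and 99.5 TPM (5.77 ± 0.45).

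In the lower direction the 10 largest changes were in Igfbp3, Igfbp7, Col3a1, Fxyd1, Plvap, Tnnt3, Acta1, Mgp, Lsm7 and Myl1. All but Col3a1 were listed at 0 in 1 or both IgG libraries, so their order rests on the level in the control bulk tumors and on the pseudocount. Igfbp3, a binding protein of insulin-like growth factors (ENSMUSG00000020427, chr11:7206086-7213923, minus strand), stood at 63.3 and 67.4 TPM in the 2 control bulk tumors against 0.07 and 0 TPM in the 2 IgG libraries, and Igfbp7 at 66.3 and 59.5 TPM against 1.18 and 0 TPM. Plvap and the collagen are genes of endothelium and fibroblasts, and Tnnt3, Acta1 and Myl1 are genes of the contractile apparatus of muscle. Col3a1, Plvap, Tnnt3 and Acta1 are also members of the lists above. Fxyd1 and Lsm7 were listed at 0 in both IgG libraries and were expressed in the sorted and cultured cells, up to 48.2 TPM for Fxyd1 and 24.2 TPM for Lsm7. Lsm7 encodes a part of the spliceosome that cells in general use, so a value of 0 in these libraries is given as listed and not as absence. In the table, 55 genes had at least 5 TPM in both control bulk tumors and 0 in both IgG libraries, against 7 genes in the reverse case.

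**Figure D4:**
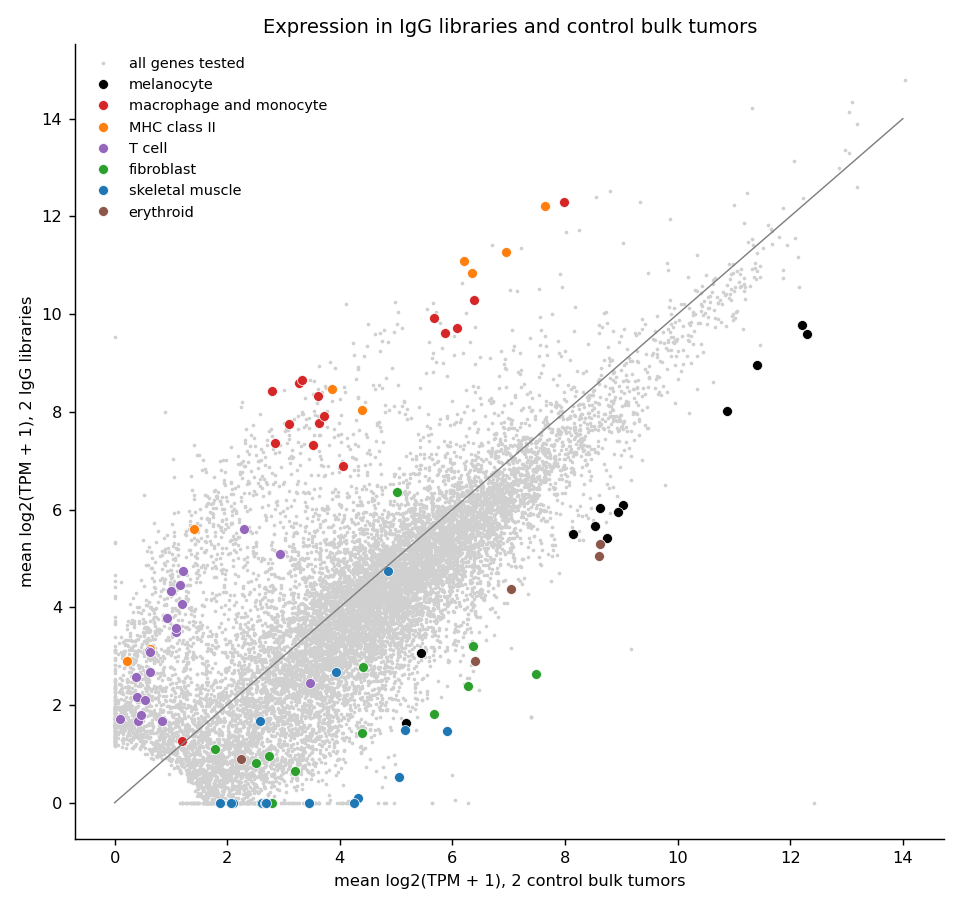
Mean log2(TPM + 1) of the 2 IgG libraries against that of the 2 control bulk tumors for the 13822 genes tested (grey), with the genes of 7 lists in color and the line of equal expression. Macrophage, MHC class II and T cell genes lie above the line, except Cd163 close to it and the T cell gene Tcf7 below it, and the melanocyte, skeletal muscle and erythroid genes lie below it, as do the fibroblast genes except Pdpn.

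The calls were also counted by the level of each gene in the tumor cell libraries. Of the genes tested, 1653 were under 1 TPM in all 4 control libraries of sorted tumor cells and cultured cells; 1010 of these (61.1%) were higher in the IgG libraries and 142 (8.59%) lower, with a median fold change of 1.90. Of the 11246 genes at 1 TPM or more in all 4, 1239 were higher and 4928 (43.8%) lower, with a median of -0.56. The first of these classes held 41.0% of the higher calls and 2.7% of the lower ones, and the second held 50.2% and 93.8%. The filter took the mean over the 4 libraries compared, so a gene near 0 in the control bulk tumors entered only where the IgG libraries were high. The shares of the first class depend on this filter, and its part in the contrast between the classes was not tested. Nacc1 and Fkbp10, which the study followed beside Nr2f6, were lower: Nacc1 stood at 74.2 and 75.2 TPM in the 2 control bulk tumors against 46.5 and 41.2 TPM in the 2 IgG libraries (-0.76 ± 0.13) and Fkbp10 at 34.1 and 44.6 TPM against 4.73 and 9.53 TPM (-2.36 ± 0.32). With median-of-ratios scaling the change of Nacc1 was -0.41, short of the 1.5-fold threshold.

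The anti-PD1 libraries, which have the same kind of label, correlated with the IgG libraries more strongly than the control bulk tumors did. Pearson's r over the 13822 genes, a description across genes that share their libraries, ran from 0.940 to 0.959 between IgG replicate 1 and the 3 anti-PD1 libraries, from 0.783 to 0.802 between it and the control bulk tumors, and from 0.702 to 0.732 between it and the sorted and cultured libraries. For IgG replicate 2 the ranges were 0.862 to 0.905, 0.669 to 0.691 and 0.589 to 0.624. The IgG libraries correlated with each other at 0.897. The macrophage sums of the anti-PD1 libraries were 7906 to 11010 TPM and the melanocyte sums 3601 to 5482 TPM. Other sums spread more widely, from 49.5 to 422 TPM for T cell and 32.1 to 672 TPM for natural killer and cytotoxic genes. For interferon-stimulated genes they ran from 973 to 5028 TPM. The lowest sum of each of these lists lay below both IgG libraries and within the range of the 6 bulk tumors.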

How the data were processed

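RNA-seq of 23 mouse libraries was used as the authors deposited it, in 1 table of TPM to 2 decimals. Per the labels, libraries of poly(A) RNA made with a stranded kit were read from 1 end, adapters were trimmed with Cutadapt 2.3, reads were aligned to mm10 with STAR 2.7.0d and genes were quantified with RSEM 1.3.1. Beside the 4 libraries compared, the table holds edited bulk tumors, tumor cells sorted from tumors, cells in culture and libraries labelled anti-PD1. TPM carry no counts, and the labels state depth as a range for the series, so the depth of each library is unknown and no count model was run. TPM depend on each other within a library: a gain in some genes lowers the rest. Groups came from the sample titles.

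The values were transformed as log2(TPM + 1). Genes that averaged 1 TPM or more over the 4 libraries compared were fitted with limma 3.58.1 in R 4.3.3, with 1 mean per group in 11 libraries of 5 groups, eBayes with an expression trend, 2-sided tests and Benjamini-Hochberg adjustment over 13822 genes. With 200 genes changed in simulated data of these libraries, 36.5% were called at 2-fold and 95.5% at 8-fold. The 200 were drawn from the more highly expressed genes of the control bulk tumors and were far fewer than the genes called here. These shares therefore do not carry over to this comparison or to genes at low TPM. The members and the 31 gene lists were chosen with earlier results of these data known; no test was run on a list. Named genes were Nr2f6, list members, the 10 largest changes in each direction among called genes without overlap between the groups, and Nacc1 and Fkbp10, chosen after their values were seen. Positions are from GENCODE M21 on GRCm38, which holds 99.1% of the genes. Plots used Python 3.11.15 with matplotlib 3.10.9. Alternatives were another pseudocount, 2 other filters, 2 other scalings, fits of 4 and of 23 libraries, a replicate block, eBayes without a trend, no fold threshold and each of the 4 libraries left out. Some members of the lists are not reported here.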

Additional observations from a re-analysis of the deposited data

How the results depend on the processing

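The numbers of genes called kept within 1.5 times of 2466 higher and 5253 lower under every alternative run: they ranged from 1914 to 3011 higher and from 4057 to 5897 lower with 1 of the 4 libraries left out, and were 2017 and 3506 in a fit of the 4 libraries alone. With 1 library left out, the lone library of its group is assumed to vary like the other groups. The deviations of the libraries numbered 1 were not correlated across genes between the groups (r = -0.05). With 2 libraries per group, this cannot decide whether equal replicate numbers paired the libraries. A replicate block gave 2463 genes higher and 5135 lower, with 18 in place of 14 higher T cell genes. Higher genes of natural killer and cytotoxic cells were 7 in place of 4. Of 46 genes followed, 31 kept direction and call in every alternative, and 562 of 594 values did. With median-of-ratios scaling the fold change turned to 0.037 for Nr2f6, 0.096 for Cd79a (0.0090 with quantile normalization), 0.016 for Pecam1 and 0.086 for the heat shock median. With 1 library left out it ran from -0.14 to 0.24 for Cd163, -0.20 to 2.42 for Ncr1, -0.99 to 0.68 for Cd79a and -0.67 to 1.61 for Tgtp1, none of which was called with all 4 libraries. The lower end for Ncr1 sets 1 IgG library listed at 0 against the control bulk tumors and depends on the pseudocount. No other median of 23 lists changed sign. With a pseudocount of 0.1 the medians were 3.35 for T cell genes, 3.55 for B and plasma cell, 4.52 for neutrophil, 3.67 for dendritic cell, -3.64 for fibroblast, -3.59 for pericyte, -4.48 for endothelial, -5.73 for skeletal muscle, 2.86 for natural killer and cytotoxic, 3.97 for immune checkpoint and 5.07 for inflammatory cytokine genes. With no filter they were 0.33 for B and plasma cell and -1.43 for pericyte genes. With a filter at 5 TPM they were 2.85 for T cell, 3.28 for natural killer and cytotoxic, -3.17 for fibroblast, -3.73 for pericyte, -2.51 for endothelial, -3.95 for skeletal muscle and 2.11 for immediate early genes. Median-of-ratios scaling gave -1.80 for pericyte, 5.12 for inflammatory cytokine, 0.83 for hypoxia and 2.01 for immediate early genes, and quantile normalization -1.74 for pericyte, -2.41 for skeletal muscle and 0.60 for hypoxia genes. Restricted, after seeing the data, to members under 1 TPM in all sorted and cultured libraries, the medians were 3.92 for neutrophil and -2.43 for pericyte genes. With 1 library left out the medians ran from -3.38 to -2.07 for melanocyte, 2.38 to 3.88 for neutrophil, 2.24 to 3.01 for dendritic cell, 1.10 to 2.85 for natural killer and cytotoxic, -3.02 to -2.55 for skeletal muscle, -4.25 to -1.61 for erythroid, 3.77 to 4.91 for MHC class II, 2.26 to 3.26 for MHC class I, 2.71 to 3.36 for immune checkpoint, 4.28 to 5.0 for inflammatory cytokine, 0.37 to 0.56 for hypoxia and 1.60 to 1.87 for immediate early genes. The cause of these moves was not tested, apart from the filters, which change the genes in a list.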
